A study of Mus musculus with 144 samples.

Results

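*Afp*, *H19*, *Igf2*, *Gpc3*, *Dlk1*, *Cd24a*, *Spp1*, *Sox9*, *Epcam* and *Krt19* are transcribed in the fetal liver or in hepatic progenitor and bile duct cells. These 10 of the 55359 genes in the deposited count files were picked by symbol, with earlier results of these data known. Their levels were read in RNA-Seq libraries of primary hepatocytes from male C57BL/6NCrl mice, whose age the labels give as 28 day, labelled wild-type (WT below) or PkmΔDRE. The cells were plated on type I collagen and received 10 nM TCDD, a chlorinated dioxin that binds the aryl hydrocarbon receptor (AHR), or DMSO vehicle. Harvest was at 2, 4, 8 and 12 h and then daily from 24 to 120 h, with 4 libraries in each of the 36 groups of label, treatment and hour. The PkmΔDRE mice are 1 CRISPR line lacking, in every cell of the body, an intronic dioxin response element (DRE) of *Pkm*, which encodes the muscle-type pyruvate kinase. WT cells carried no deletion. All groups attached in medium with serum, and the medium that then brought TCDD or vehicle held dexamethasone and is described without serum. The labels do not say which libraries come from the same animal, so p-values below measure the spread between these libraries only. Levels are CPM, counts of read pairs on genes scaled to the TMM-adjusted size of the library, and "passed the test" means an adjusted p under 0.05 with a fold change of at least 1.5 in edgeR's quasi-likelihood test across all genes.

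The fetal liver makes blood plasma proteins from hepatoblasts, bipotent cells that give rise to hepatocytes and cholangiocytes. Hepatoblasts secrete alpha-fetoprotein (*Afp*) and carry the surface molecules *Dlk1* and *Gpc3*, and they transcribe the imprinted neighbours *H19* and *Igf2*, which fall silent in the liver after birth. Cholangiocytes, and the progenitor cells that appear in injured adult liver, carry *Sox9*, *Krt19*, *Epcam*, *Cd24a* and *Spp1*. Adult hepatocytes placed on a collagen-coated dish are known to lose much of their specialized transcription over days.

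The AHR with its partner ARNT recognizes a DRE whose core is GCGTG, which reads CACGC on the opposite strand, and the *Pkm* deletion removes 1 such core. RefSeq promoters of GRCm38.p6, from 250 bases before to 50 bases after a transcription start, were found for 6 of the 10 genes, with 10 promoters in all. The core was in 2 of the 10, with 4 copies on the reverse strand at *Gpc3* and 1 on the forward strand at *Dlk1*. Of 32851 mouse promoters of this length, 32.4% hold the core on either strand. The promoters of 3 genes are shown with any core in capitals, because *Gpc3* had the largest called fall with TCDD, and *Afp* and *Spp1*, which rose over culture, lack the core in this window.
*Gpc3*, chrX:52613925-52614224, minus strand: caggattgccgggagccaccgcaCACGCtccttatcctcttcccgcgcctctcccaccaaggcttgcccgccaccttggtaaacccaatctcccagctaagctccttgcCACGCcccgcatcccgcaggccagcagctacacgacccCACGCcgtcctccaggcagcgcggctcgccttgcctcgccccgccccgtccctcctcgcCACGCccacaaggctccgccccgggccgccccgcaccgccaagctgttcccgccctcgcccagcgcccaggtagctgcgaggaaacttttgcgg
*Afp*, chr5:90490464-90490763, plus strand: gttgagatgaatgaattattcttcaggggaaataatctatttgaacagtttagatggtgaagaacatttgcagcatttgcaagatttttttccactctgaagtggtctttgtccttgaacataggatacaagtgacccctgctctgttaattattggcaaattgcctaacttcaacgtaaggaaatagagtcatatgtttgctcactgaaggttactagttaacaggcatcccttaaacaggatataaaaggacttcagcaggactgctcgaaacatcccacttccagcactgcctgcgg
*Spp1*, chr5:104434861-104435160, plus strand: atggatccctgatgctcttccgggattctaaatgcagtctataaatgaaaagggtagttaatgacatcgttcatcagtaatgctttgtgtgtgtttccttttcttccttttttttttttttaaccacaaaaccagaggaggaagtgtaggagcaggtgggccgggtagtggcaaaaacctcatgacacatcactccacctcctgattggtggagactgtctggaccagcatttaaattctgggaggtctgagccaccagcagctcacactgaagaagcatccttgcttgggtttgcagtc
The capitals mark letters only and say nothing of binding. Counts were made on GRCm39, while these coordinates and the exon lengths used below are of GRCm38. *Igf2* shares 3596 exon bases with *Gm49394*, which was listed at 0 CPM, on the same strand, so pairs from the shared bases may have been counted to neither gene and the *Igf2* counts below may miss them.

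The count files held 13588848 to 30719161 pairs on genes per library. *Pkm* ran against the genotype labels, since at 48 h its CPM were 458 ± 492 in vehicle and 438 ± 209 in TCDD for libraries labelled WT, against 450 ± 159 and 934 ± 153 for those labelled PkmΔDRE (SD, n = 4 each). At 8 h they were 62.4 ± 16.5 in vehicle and 45.6 ± 14.5 in TCDD for WT, against 54.9 ± 19.2 and 129.7 ± 27.2 for PkmΔDRE. WT and PkmΔDRE therefore name labels in what follows. *Cyp1a1*, the AHR target whose induction marks TCDD exposure, went against the treatment label in 4 WT libraries: it was 3285 CPM in vehicle replicate 1 at 48 h and 1717 CPM in vehicle replicate 3 at 96 h. It was 1.15 CPM in TCDD replicate 4 at 2 h and 29.2 CPM in TCDD replicate 4 at 72 h. Mature hepatocyte transcripts, such as *Cyp2e1* at 4672 ± 948 CPM in WT vehicle at 2 h, were present from the first hour, so the labelled cell type was borne out at the start of the cultures. Blood cell markers were at or near 0, since none of 7 exceeded 2.54 CPM in any library.

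Replicate 4 of PkmΔDRE vehicle at 4 h and replicate 4 of PkmΔDRE vehicle at 96 h, the 4 h and 96 h outlying libraries below, carried marker levels of another hour. Over 12243 genes, the 4 h one correlated at 0.769 with the rest of its group and at 0.985 with WT vehicle at 96 h, and the 96 h one at 0.752 with its group and at 0.984 with PkmΔDRE TCDD at 4 h. The other libraries correlated at 0.867 or more with their own groups. The 4 h outlying library had 142.3 CPM of *Afp*, 316 of *Cd24a*, 682 of *Spp1* and 124.7 of *Krt19*, where the 3 other 4 h libraries had 2.26 to 2.62, 3.57 to 5.01, 5.32 to 8.20 and 0.125 to 1.17 CPM. The 96 h outlying library had 2.201 CPM of *Afp*, 3.14 of *Cd24a*, 5.34 of *Spp1* and 0.629 of *Krt19*, where the 3 other 96 h libraries had 178 to 560, 105.3 to 390, 576 to 666 and 108.9 to 202 CPM. The groups stand as labelled here, and the values that moved most at 4 and 96 h, and the correlations, are also given without them.

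**Figure D1:**
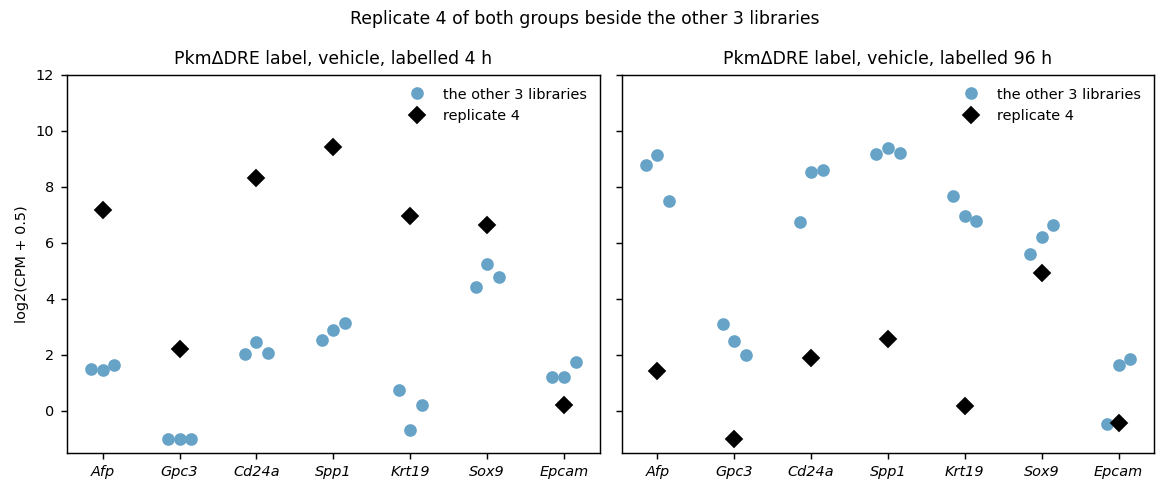
Level of 7 markers, as log2(CPM + 0.5), in the PkmΔDRE vehicle groups labelled 4 h (left) and 96 h (right), with replicate 4, the outlying library, as a black diamond and the 3 other libraries of the group as circles. The diamond lies above the group for *Afp* at 4 h (142.3 against 2.26 to 2.62 CPM) and below it at 96 h (2.201 against 178 to 560 CPM).

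At the start of culture none of the 10 transcripts was abundant except *Sox9*, and by 120 h the order had changed. Per kilobase of exon, and over the 8 vehicle libraries of both labels at 2 h, the mean level was 20.02 CPM per kb for *Sox9*, 6.63 for *Spp1*, 1.37 for *Epcam*, 1.05 for *Cd24a*, 0.484 for *Afp* and 0.425 for *Krt19*, with *Dlk1*, *Igf2*, *Gpc3* and *H19* at 0.0325 or less. Every gene in this order overlapped its next lower neighbour at 2 h. At 120 h the mean level was 444 CPM per kb for *Spp1*, 128.3 for *Cd24a*, 76.9 for *Afp*, 26.9 for *Sox9*, 22.4 for *Krt19*, 1.88 for *Gpc3*, 0.455 for *Epcam*, 0.395 for *H19*, 0.0458 for *Igf2* and 0.0202 for *Dlk1*. There, *Spp1* (247 to 636 CPM per kb) lay above *Cd24a* (82.6 to 170 CPM per kb) in all 8 libraries, and *Krt19* (12.4 to 37.1) above *Gpc3* (0.275 to 4.36), while every other pair of neighbours overlapped.

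**Figure D2:**
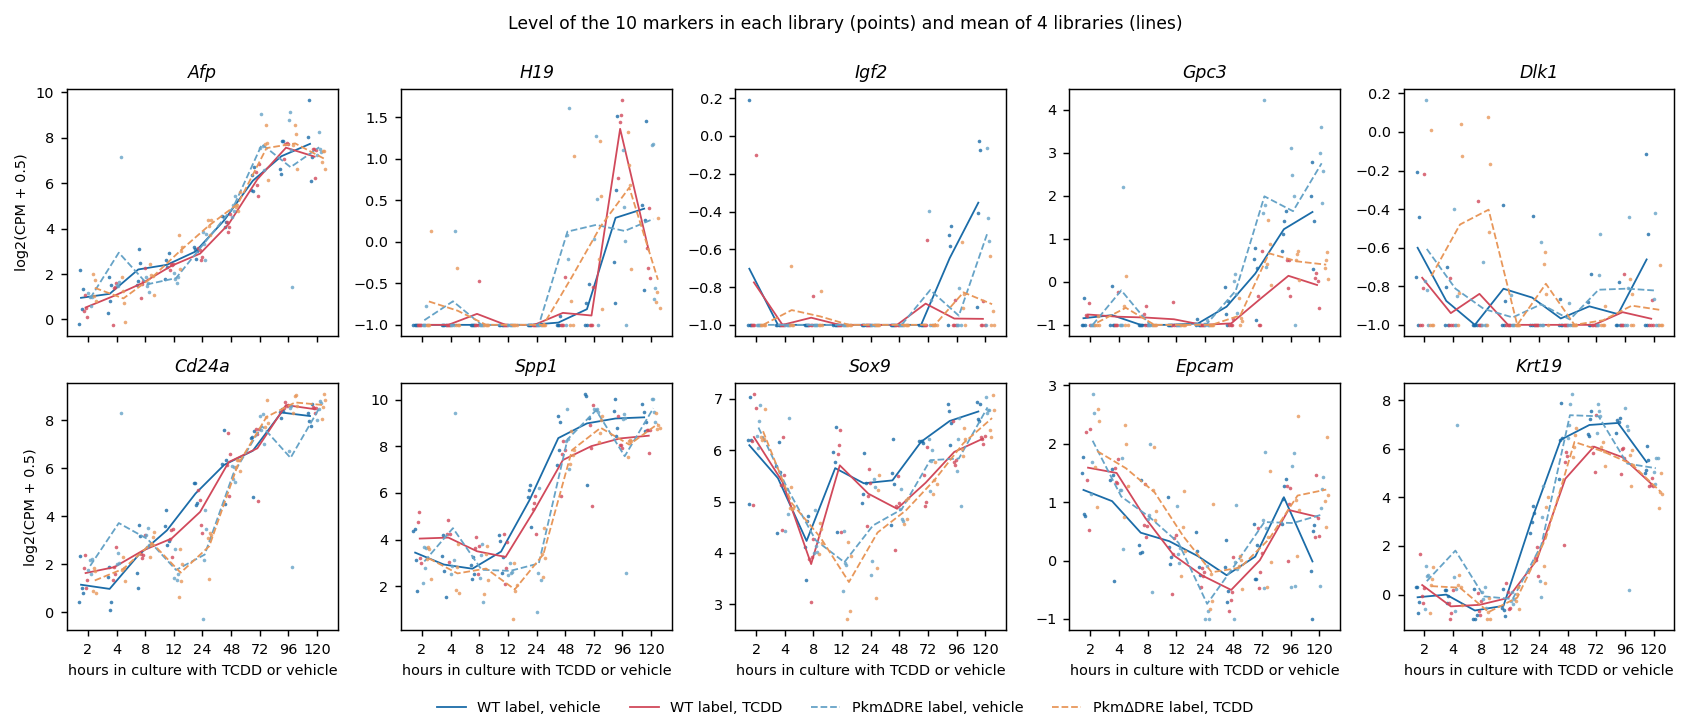
Level of the 10 markers at each hour, as log2(CPM + 0.5), with a point for each library and a line through the mean of the 4 libraries of each label and treatment. *Afp*, *Cd24a*, *Spp1* and *Krt19* rise, *Sox9* dips to 19.3 CPM at 8 h in WT vehicle and returns to 108.3, and *H19*, *Igf2* and *Dlk1* stay at 2.75 CPM or less in every library.

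*Afp*, the fetal counterpart of serum albumin, climbed at every hour in WT vehicle. In WT vehicle, the 4 libraries had 0.371, 4.02, 0.890 and 2.06 CPM at 2 h, 8.55, 8.16, 5.92 and 7.46 CPM at 24 h, and 264, 804, 67.8 and 140.9 CPM at 120 h. PkmΔDRE vehicle libraries had 1.71, 1.47, 1.01 and 1.51 CPM at 2 h and 149, 303, 180 and 165 CPM at 120 h. All 120 h libraries lay above all 2 h libraries under both labels, and the spread at 120 h in WT came largely from 1 library at 804 CPM. The log2 fold change of 120 h against 2 h was 7.23 (SE 0.95, adjusted p = 8.86e-05) in WT and 6.95 (SE 0.34, adjusted p = 2.75e-08) in PkmΔDRE. Part of the rise was already present at 24 h, at 1.78 (SE 0.56, adjusted p = 0.0196) and 2.89 (SE 0.45, adjusted p = 0.000848) on the log2 scale.

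*Gpc3*, glypican-3, a heparan sulfate proteoglycan of the cell surface and a known marker of liver tumours, was nearly absent until 48 h. In WT vehicle its libraries had 0, 0, 0.267 and 0 CPM at 2 h, 0, 0.0480, 0 and 0 CPM at 24 h, and 3.52, 6.38, 0.740 and 2.15 CPM at 120 h. The PkmΔDRE vehicle libraries were all at 0 at 2 h and had 7.46, 11.7, 3.09 and 5.50 CPM at 120 h. Summed counts rose from 3 at 2 h to 339 at 120 h in WT, a ratio of 96.4 once scaled to library totals (95% interval 32.7 to 470, counting error only), and from 0 to 686 in PkmΔDRE, at least 274-fold higher with the floor of 3 counts over the group. Both rises passed the test (adjusted p = 0.00142 and 5.66e-05), although a gene this low passes the count filter through its high group alone.

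*H19*, a maternally expressed noncoding RNA, was at 0 in all 20 WT vehicle libraries from 2 to 24 h and appeared late. Its WT vehicle libraries had 0.345, 0.0980, 1.04 and 2.35 CPM at 96 h and 0.862, 0.170, 0.703 and 2.24 CPM at 120 h, and the PkmΔDRE ones had 0, 0.560, 0.369 and 2.54 CPM already at 48 h. Summed *H19* counts were 0 at 2 h in WT and at least 33.6-fold higher at 120 h, and went from 1 to 93 in PkmΔDRE, a ratio of 111.5 (95% interval 19.5 to 4.45e+03, counting error only). *Igf2*, the paternally expressed growth factor gene beside it, had 0.640 CPM at most in any library by the pairs counted to it, with 34 summed counts in WT vehicle at 120 h. *Dlk1*, a paternally expressed membrane protein related to the Notch ligands, had no more than 0.621 CPM in any library, and its summed counts in WT vehicle were 8 at 2 h and 16 at 120 h, a ratio of 1.71 (95% interval 0.689 to 4.60). *H19*, *Igf2* and *Dlk1* passed the count filter in none of the comparisons of 120 h with 2 h and were not tested there.

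*Cd24a*, a small sialylated surface protein of progenitor cells, rose over culture under both labels. In WT vehicle it had 0.836, 4.57, 1.51 and 1.27 CPM at 2 h, 41.3, 41.1, 21.6 and 22.9 CPM at 24 h and 315, 252, 213 and 404 CPM at 120 h. In PkmΔDRE vehicle it had 2.91, 4.03, 2.50 and 4.10 CPM at 2 h, 0.326, 4.06, 18.4 and 10.5 CPM at 24 h and 259, 348, 439 and 418 CPM at 120 h. The 24 h values overlapped those of 2 h in PkmΔDRE and not in WT. The log2 fold change of *Cd24a* from 2 to 120 h was 6.98 (SE 0.49, adjusted p = 1.35e-06) in WT and 6.57 (SE 0.28, adjusted p = 1.19e-08) in PkmΔDRE.

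*Spp1*, which encodes the secreted matrix protein osteopontin, became the highest of the 10. Its WT vehicle libraries had 19.9, 21.6, 8.28 and 3.01 CPM at 2 h, 1204, 1151, 80.3 and 591 CPM at 72 h and 900, 702, 407 and 530 CPM at 120 h. Those labelled PkmΔDRE had 3.94, 12.5, 6.28 and 12.0 CPM at 2 h, 772, 760, 769 and 703 CPM at 72 h and 1041, 1048, 706 and 524 CPM at 120 h. Groups at 2 and 120 h did not overlap under either label, and at 72 h the WT libraries were spread far more widely than the PkmΔDRE libraries. From 2 to 120 h the log2 fold change of *Spp1* was 5.39 (SE 0.59, adjusted p = 2.57e-05) in WT and 6.41 (SE 0.43, adjusted p = 3.69e-07) in PkmΔDRE.

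*Krt19*, the type I keratin of bile duct epithelium, rose late and then fell back. In WT vehicle its mean went from 0.470 ± 0.322 CPM at 2 h and 8.60 ± 2.93 at 24 h to 134.4 ± 24.0 by 96 h, and was 45.2 ± 16.9 at 120 h (SD, n = 4). In PkmΔDRE vehicle the mean went from 1.11 ± 0.675 CPM at 2 h and 7.94 ± 9.95 at 24 h to 185 ± 97.3 by 48 h, and was 37.9 ± 12.6 at 120 h. The 4 WT libraries had 99.8, 145, 138.3 and 154 CPM at 96 h and 31.6, 34.8, 68.9 and 45.3 CPM at 120 h, 2 groups that did not overlap. From 2 to 120 h the log2 fold change was 6.38 (SE 0.46, adjusted p = 1.32e-06) in WT and 4.90 (SE 0.50, adjusted p = 9.49e-06) in PkmΔDRE. At 2 h in WT *Krt19* did not pass the count filter, so the WT test was reached through its 120 h group.

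*Sox9*, a transcription factor of ductal and progenitor cells, fell over the first day and then rose. The WT vehicle libraries had 72.7, 30.5, 131.2 and 73.2 CPM at 2 h, 16.8, 10.7, 24.0 and 25.8 CPM at 8 h and 122.9, 96.8, 94.7 and 118.9 CPM at 120 h. Those of PkmΔDRE had 77.3, 65.2, 94.04 and 118.2 CPM at 2 h, 15.5, 28.0, 17.04 and 15.8 CPM at 8 h and 131.6, 105.9, 109.6 and 109.8 CPM at 120 h. The 8 h libraries lay below all libraries of 2 and 120 h under both labels. Between 2 and 24 h *Sox9* fell by 1.10 on the log2 scale (SE 0.35, adjusted p = 0.0199) in WT and by 1.64 (SE 0.48, adjusted p = 0.0243) in PkmΔDRE. Leaving out replicate 3 at 2 h or replicate 1 at 24 h ended the WT call, and leaving out replicate 1, 3 or 4 at 2 h the PkmΔDRE call. Between 24 and 120 h it rose by 1.34 (SE 0.21, adjusted p = 0.000619) and 2.06 (SE 0.47, adjusted p = 0.0137), so that 120 h and 2 h differed by 0.30 (SE 0.33, adjusted p = 0.440) and 0.17 (SE 0.21, adjusted p = 0.498), neither of which passed.

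*Epcam*, the epithelial cell adhesion molecule, was the member that fell. Its PkmΔDRE vehicle libraries had 1.71, 2.71, 6.68 and 5.27 CPM at 2 h, 0, 0.431, 0.0488 and 0 CPM at 24 h and 0.242, 1.37, 1.84 and 2.21 CPM at 120 h. The WT libraries had 2.32, 2.92, 1.25 and 1.19 CPM at 2 h, 0.911, 0.624, 0.420 and 0.342 CPM at 24 h and 0.379, 0, 0.925 and 1.03 CPM at 120 h. By 24 h *Epcam* had fallen by 1.96 on the log2 scale (SE 0.57, adjusted p = 0.0130) in WT and by 4.81 (SE 1.11, adjusted p = 0.00855) in PkmΔDRE, with no overlap of the groups. The log2 difference of 120 h from 2 h was -1.72 (SE 0.63, adjusted p = 0.0327) in PkmΔDRE, a call lost without replicate 3 or 4 at 2 h or replicate 1, 2 or 3 at 120 h, and -1.90 (SE 0.83, adjusted p = 0.0645) in WT, which did not pass.

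*Gpc3* passed the filter on low counts through its 120 h group alone. *Krt19* did not pass it at 2 h in WT, where vehicle libraries had 0.089 to 0.743 CPM. In WT it therefore came into the comparisons with 2 h through its later group. *H19*, *Igf2* and *Dlk1* did not pass, so the counts that follow describe the members tested and not all 10. Among these, 5 of 7 rose and none fell from 2 to 120 h in WT vehicle (*Afp*, *Gpc3*, *Cd24a*, *Spp1* and *Krt19*), and the same 5 of 7 rose in PkmΔDRE, where *Epcam* fell. The median log2 fold change of the 7 was 5.39 in WT and 6.41 in PkmΔDRE, beside 0.16 over all genes tested under each label. Because the members were chosen with earlier results of these data known, these figures describe them and test nothing against all genes. Change was general in these cultures, since 34.2% of all genes tested rose and 26.9% fell from 2 to 120 h in WT, and 33.2% and 27.9% in PkmΔDRE. From 2 to 24 h, 4 members rose and 2 fell of 6 in WT, against 23.5% and 24.4% of all genes, and in PkmΔDRE 1 rose and 2 fell of 6, against 17.3% and 13.5%. From 24 to 120 h, 6 of 7 rose in WT, where 24.6% of genes rose and 20.8% fell, and 5 of 6 rose in PkmΔDRE, where 7.74% rose and 7.23% fell. Under TCDD, 4 of 6 rose from 2 to 120 h in WT (25.4% of genes rose and 26.7% fell) and 5 of 7 in PkmΔDRE (28.2% rose and 24% fell). *Afp* rose under TCDD by 7.11 (SE 0.45, adjusted p = 2.27e-06) and 5.85 (SE 0.35, adjusted p = 2.78e-07) on the log2 scale. With a covariate for pairs that hit no gene, 2 of the 5 WT vehicle calls remained, those of *Afp* (log2 fold change 11.53, adjusted p = 0.0355) and *Krt19* (6.72, adjusted p = 0.0323). The other 3 had log2 fold changes of 6.64 (*Gpc3*, adjusted p = 0.302), 4.73 (*Spp1*, adjusted p = 0.237) and 5.93 (*Cd24a*, adjusted p = 0.0565) there. In WT vehicle the covariate was 4.616 to 5.51% at 2 h and 8.573 to 10.66% at 120 h, without overlap. This fit therefore cannot separate the covariate from the hour, and a lost call there says little about the rise.

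Other imprinted fetal growth genes moved unevenly. Of 12, 7 were tested in WT vehicle from 2 to 120 h, 3 rose and 1 fell, with a median of 0.23 beside 0.16 over all genes tested. *Peg3*, a paternally expressed zinc finger gene, went from 0.0817 ± 0.112 to 22.1 ± 8.40 CPM (log2 fold change 7.69, SE 0.61, adjusted p = 2.33e-06), and *Ndn* went from 0 in all 4 libraries to 3.71 ± 1.09 CPM. *Igf2r*, the receptor that clears *Igf2*, rose by 0.64 (SE 0.15, adjusted p = 0.00336). *Plagl1*, a transcription factor gene of the imprinted network, fell by 1.74 on the log2 scale (SE 0.46, adjusted p = 0.00646) in WT. In PkmΔDRE the log2 fold change of *Plagl1* was -0.16 (adjusted p = 0.855) and did not pass, while *Peg3*, *Ndn* and *Igf2r* rose there too.

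Among 7 oncofetal RNA- and chromatin-binding genes, 5 were tested, 4 rose and 1 fell, with a median of 4.01. *Igf2bp1*, whose protein binds *Igf2* and *H19* transcripts, went from 0.265 ± 0.415 to 13.3 ± 4.26 CPM (log2 fold change 5.34, SE 0.75, adjusted p = 0.000129). *Hmga2* rose by 4.03 (SE 1.00, adjusted p = 0.00491) and *Igf2bp3* by 4.01 (SE 0.91, adjusted p = 0.00276). *Hmga1*, a chromatin protein, fell by 3.39 on the log2 scale (SE 0.44, adjusted p = 7.91e-05).

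All 10 genes listed as regulators of *Afp* were tested, and 5 rose and 2 fell, with a median of 0.79. *Zfhx3* and *Zbtb20*, both known repressors of *Afp*, rose by 2.59 (SE 0.20, adjusted p = 2.24e-06) and 1.503 (SE 0.24, adjusted p = 0.000265) on the log2 scale, and *Nr5a2*, an activator, rose by 1.51 (SE 0.41, adjusted p = 0.00719). *Foxa3* and *Cebpa*, liver-enriched transcription factors, had log2 fold changes of -3.44 (SE 0.20, adjusted p = 3.33e-07) and -2.36 (SE 0.20, adjusted p = 3.40e-06). Members of this list thus moved in both directions while *Afp* rose.

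Of 17 other biliary and progenitor genes, 15 were tested, 9 rose and 2 fell, with a median of 2.59. *Bicc1*, an RNA-binding protein of ducts, went from 0.346 ± 0.580 to 331 ± 45.2 CPM (log2 fold change 9.73, SE 0.65, adjusted p = 1.01e-06). *Krt7*, the other duct keratin, went from 0.0232 ± 0.0464 to 14.9 ± 9.03 CPM (adjusted p = 5.95e-06), and *Jag1*, a Notch ligand, rose by 4.60 (SE 0.20, adjusted p = 1.20e-07). *Tnfrsf12a*, the TWEAK receptor, and *Yap1*, the Hippo pathway coactivator, fell, with log2 fold changes of -1.41 (SE 0.16, adjusted p = 3.38e-05) and -0.60 (SE 0.11, adjusted p = 0.000850). In PkmΔDRE, 14 of the biliary list were tested, 10 rose and 2 fell.

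Mature hepatocyte genes fell over the hours in which 5 members rose. All 11 tested of 12 fell in WT, with a median of -5.16, and all 12 fell in PkmΔDRE, with a median of -5.74. *Cyp2e1*, *Cyp3a11* and *Cyp2c29*, drug-metabolizing cytochromes of the adult liver, fell in WT, with log2 fold changes of -13.85 (SE 1.00, adjusted p = 1.55e-06), -9.95 (SE 0.75, adjusted p = 2.06e-06) and -7.56 (SE 0.98, adjusted p = 7.99e-05).

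Markers of other liver cells moved too. Summed CPM of 7 cholangiocyte markers, all of which are also in the biliary list, were 6.66 to 16.5 in WT vehicle at 2 h and 409 to 533 at 120 h, and all 5 that were tested rose, among them *Cldn4* by 3.67 (SE 0.96, adjusted p = 0.00651). Summed CPM of 10 stellate cell and fibroblast markers were 19.7 to 30.2 and then 31.3 to 248, with 5 of 9 tested rising and 2 falling. Of these, *Col1a1* rose by 7.91 (SE 0.89, adjusted p = 3.12e-05), *Col3a1* by 5.37 (SE 0.78, adjusted p = 0.000176), and *Acta2* went from 0 in all 4 libraries to 23.1 ± 20.9 CPM, while *Colec11* and *Reln* fell, at -3.41 (SE 0.75, adjusted p = 0.00223) and -1.68 (SE 0.37, adjusted p = 0.00239). Summed CPM of 8 endothelial markers went from 313 to 501 down to 42.5 to 96.0 and those of 10 macrophage markers from 213 to 340 down to 23.9 to 149, with 7 of 8 and 6 of 10 falling. *Clec4g* and *Lyve1*, of sinusoidal endothelium, fell, at -5.80 and -4.41, and *Clec4f* and *Timd4*, of Kupffer cells, went from 68.2 ± 18.7 to 0.581 ± 0.671 CPM and from 9.91 ± 3.26 to 0.00801 ± 0.0160 CPM. Of 6 mesothelial markers, 5 were at 0 in WT vehicle at 2 h, and their summed CPM were 2.38 to 4.89 at 120 h, mostly *Msln* at 2.98 ± 1.19. In bulk libraries a change in the number of cells of a type and a change in RNA per cell cannot be told apart, and the part of other cells in the rise of the members was not tested.

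**Figure D3:**
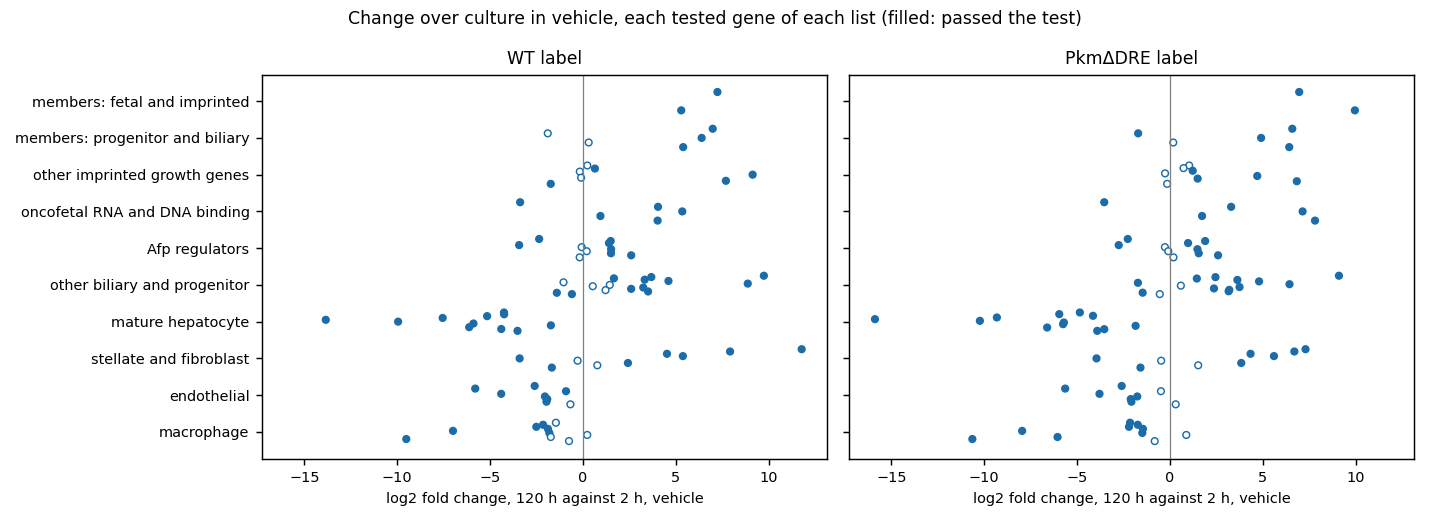
Log2 fold change of 120 h against 2 h in vehicle for each tested gene of each list (rows), under the WT label (left) and the PkmΔDRE label (right), with filled points for genes that passed the test. The members sit mostly above 5, the other biliary genes around a median of 2.59 in WT and 2.79 in PkmΔDRE, and the mature hepatocyte genes far below 0.

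*Krt19* and *Gpc3* were lower with TCDD at late hours in 4 calls, and none of the 10 genes was called higher. In 1 fit of all libraries, which shares 1 estimate of the spread, none of these 4 calls passed, with adjusted p of 0.547 (*Krt19*) and 0.623 (*Gpc3*) at 96 h in WT, 0.656 (*Krt19*) at 72 h and 0.39 (*Gpc3*) at 120 h in PkmΔDRE, and log2 fold changes of -1.42, -1.59, -1.51 and -3.07. That fit held the 4 h and 96 h outlying libraries and was not run without them, so their part in its estimate of the spread was not tested. In 53 tests of members across the 9 hours in WT, 2 passed, both lower with TCDD, and 11 had an unadjusted p under 0.05. Of the 11, 4 were among 8 members at 96 h, where 6109 of 13793 genes were also under 0.05. Another 4 were among 8 at 120 h, beside 2310 of 14305 genes. In 55 tests in PkmΔDRE, 2 passed, both lower, and 13 had an unadjusted p under 0.05, or 11 without the outlying libraries. With all libraries, 4 of the 13 were among 6 members at 4 h, beside 289 of 12062 genes. At 72 h it was 3 of 8 members beside 1464 of 13621 genes, and at 120 h 3 of 7 beside 1069 of 14373. *H19*, *Igf2*, *Gpc3* and *Dlk1* did not pass the count filter at 2 to 48 h, and *Igf2* and *Dlk1* at no hour. The share of all genes called in WT was, from the earliest hour to the latest, 0%, 0%, 37.4%, 0.0321%, 0.373%, 0.00763%, 0%, 15.1% and 1.46%. In PkmΔDRE it was, in the same order, 0%, 0%, 0.106%, 0.024%, 0.016%, 0.404%, 1.13%, 0.0793% and 0.633%. At 8 h in WT, where that share was highest, none of the 5 tested members passed.

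**Figure D4:**
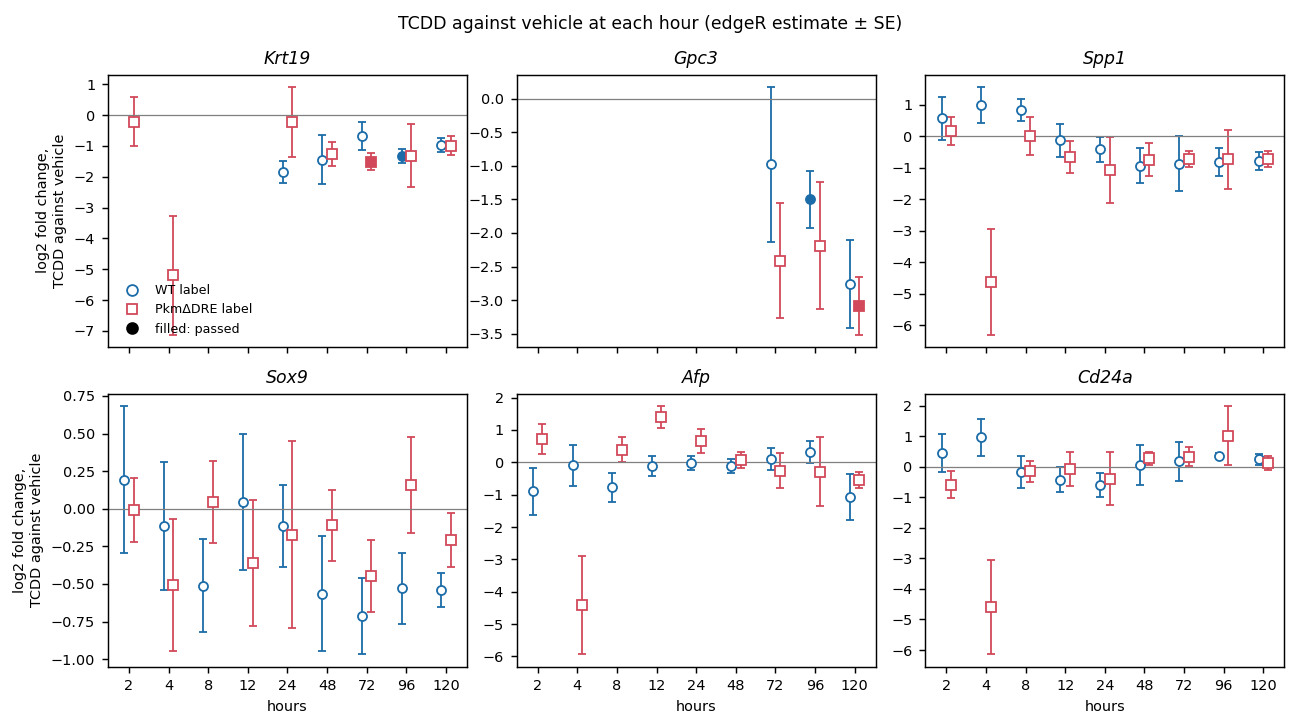
Log2 fold change of TCDD against vehicle at each hour for the members that passed the count filter, as the edgeR estimate with its SE, under the WT label (blue circles) and the PkmΔDRE label (red squares), filled where the test was passed. The filled points are *Krt19* and *Gpc3* at 96 h in WT, *Krt19* at 72 h and *Gpc3* at 120 h in PkmΔDRE, all below 0, and the wide bars at 4 h in PkmΔDRE include the outlying library of that hour.

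*Krt19* had 2 calls, 1 under each label, and log2 fold changes below 0 at 24 to 120 h under both. At 96 h in WT it had 99.8, 145, 138.3 and 154 CPM in vehicle and 30.6, 63.2, 64.1 and 48.5 CPM in TCDD, so every treated library lay below every vehicle library. The log2 fold change was -1.33 (SE 0.22, adjusted p = 0.00216), and the call held in all 8 fits that left out 1 library but not in 1 fit of all libraries. At 72 h in PkmΔDRE it had 98.5, 225, 185 and 162 CPM in vehicle and 66.3, 76.4, 59.9 and 38.8 CPM in TCDD, again without overlap, at -1.51 (SE 0.28, adjusted p = 0.0238). That call was lost without vehicle replicate 2 or 4 or TCDD replicate 1, 3 or 4. Unmapped pairs at 72 h in PkmΔDRE were 3.06 to 7.74% in vehicle and 2.43 to 3.16% in TCDD, and their part in the difference was not tested. The *Krt19* groups did not overlap either at 24 h in WT, with 5.22, 7.39, 12.0 and 9.80 CPM in vehicle and 2.37, 2.15, 3.33 and 1.22 CPM in TCDD (log2 fold change -1.84, SE 0.35, adjusted p = 0.0628), or at 120 h in WT (-0.96, SE 0.22, adjusted p = 0.0677).

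*Gpc3* appeared late in vehicle and less so with TCDD. At 120 h in PkmΔDRE it had 7.46, 11.7, 3.09 and 5.50 CPM in vehicle and 0.750, 0.917, 1.12 and 0.553 CPM in TCDD. The log2 fold change was -3.08 (SE 0.43, adjusted p = 0.0110), a call that held in all 8 fits that left out 1 library but not in 1 fit of all libraries, and the ratio of summed counts, scaled to library totals, was 0.118 (95% interval 0.0950 to 0.144, counting error only). The share of unmapped pairs was 4.06 to 6.68% in these vehicle libraries and 2.2 to 2.48% in the TCDD ones, without overlap, and its part in the difference was not tested. At 96 h in WT *Gpc3* had 1.13, 1.67, 2.17 and 2.65 CPM in vehicle and 0.932, 0.408, 0.921 and 0.300 CPM in TCDD, at -1.497 (SE 0.42, adjusted p = 0.0193). Without vehicle replicate 4 or TCDD replicate 2, or with the covariate for pairs that hit no gene, the 96 h call was lost. At 120 h in WT it had 3.52, 6.38, 0.740 and 2.15 CPM in vehicle and 0.572, 0.651, 0.507 and 0.158 CPM in TCDD, at -2.76 (SE 0.66, adjusted p = 0.0717). In WT at 96 and 120 h, *Gpc3* passed the count filter through its vehicle group alone, where it was higher. In all 3 of these comparisons the treated libraries lay below every vehicle library. The share of all genes without overlap was not counted, here or in any other comparison. At 96 h in WT, 6109 of 13793 genes had an unadjusted p under 0.05 in the edgeR test.

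**Figure D5:**
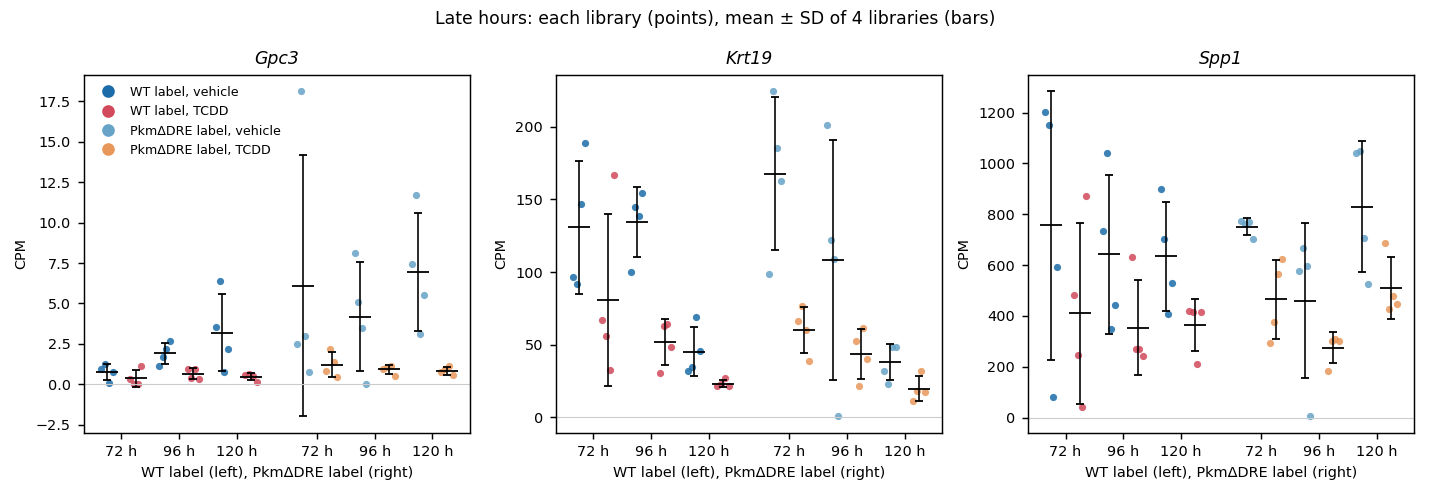
CPM of *Krt19*, *Gpc3* and *Spp1* at the late hours in each library (points) with the mean and SD of 4 libraries, WT label on the left and PkmΔDRE label on the right of each panel. TCDD libraries lie below all vehicle libraries for *Krt19* at 96 h in WT and at 72 h in PkmΔDRE, and for *Gpc3* at 120 h under both labels, and the outlying library is the vehicle point near 0 at 96 h in PkmΔDRE.

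*Spp1* had log2 fold changes of -0.93 to -0.72 with TCDD from 48 to 120 h under both labels, and none passed. At 72 h in PkmΔDRE, for example, it had 772, 760, 769 and 703 CPM in vehicle and 295, 376, 567 and 623 CPM in TCDD, without overlap (-0.73, SE 0.25, adjusted p = 0.281). *Sox9* at 120 h in WT had 122.9, 96.8, 94.7 and 118.9 CPM in vehicle and 76.6, 74.2, 69.4 and 77.6 CPM in TCDD, and its adjusted p of 0.0441 went with a log2 fold change of -0.54, under the fold threshold. *Cd24a* at 96 h in WT had 325, 273, 348 and 333 CPM in vehicle and 365, 433, 390 and 394 CPM in TCDD, all treated libraries higher, at 0.37 (SE 0.08, adjusted p = 0.00730), also under the fold threshold. *Afp* at 120 h had 183, 180, 74.1 and 175 CPM in WT TCDD libraries against 264, 804, 67.8 and 140.9 in vehicle, and did not pass at any hour.

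Without the 96 h outlying library, TCDD calls in PkmΔDRE at 96 h were made for 3 members that had none with it. *Gpc3* then had a log2 fold change of -2.63 (adjusted p = 0.00516) in place of -2.19 (adjusted p = 0.681), *Krt19* -1.76 (adjusted p = 0.0159) in place of -1.31 (adjusted p = 0.750), and *Spp1* -1.19 (adjusted p = 0.0123) in place of -0.74 (adjusted p = 0.826). At this hour *Krt19* had 202, 122.2, 108.9 and 0.629 CPM in vehicle, the last in the outlying library, and 52.2, 21.4, 61.4 and 39.9 CPM in TCDD. Over all genes the calls at 96 h in PkmΔDRE went from 11 to 321. The share of unmapped pairs was 4.3 to 5.27% in the vehicle libraries kept there and 1.96 to 2.9% in the TCDD ones, without overlap. Its part in these differences was not tested. Without the 4 h outlying library the 4 h differences of *Afp* and *Spp1* shrank from -4.41 to -0.56 and from -4.61 to -0.06. Those of *Cd24a* and *Krt19* went from -4.59 to -0.40 and from -5.20 to 0.30, and none of the 4 passed either way. Without the 4 WT libraries whose *Cyp1a1* went against the treatment label, the 96 h calls in WT stood for *Krt19* (-1.32, adjusted p = 0.00405) and *Gpc3* (-1.44, adjusted p = 0.0459), and *Sox9* joined them (-0.67, adjusted p = 0.0442). At 72 h in WT the log2 fold changes then went from -0.98 to -2.78 for *Gpc3*, from -0.87 to -1.56 for *Spp1* and from -0.69 to -1.33 for *Krt19*, and none of the 3 passed.

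Among the other lists, *Igf2bp1* was lower with TCDD in the same 3 late comparisons as *Krt19* or *Gpc3*, with log2 fold changes of -1.25 at 96 h in WT (SE 0.19, adjusted p = 0.00103), -1.31 at 72 h (SE 0.26, adjusted p = 0.0289) and -1.23 at 120 h (SE 0.22, adjusted p = 0.0398) in PkmΔDRE. *Igf2bp1* was picked for mention here after its values were seen. Of 15 tested biliary and progenitor genes, none passed at 120 h under either label, and at 96 h in WT 2 rose and 2 fell of 14. Cholangiocyte marker sums at 96 h in WT were 406 to 521 CPM in vehicle and 310 to 435 in TCDD, and at 72 h in PkmΔDRE 346 to 459 and 255 to 329. Stellate marker sums were 84.5 to 213 CPM in vehicle and 115.7 to 334 in TCDD at 96 h in WT, and 33.8 to 102.9 and 143.8 to 204 at 72 h in PkmΔDRE, and *Reln*, one of these markers, rose by 3.96 (SE 0.62, adjusted p = 0.00331) and 5.20 (SE 0.51, adjusted p = 0.000337) on the log2 scale. Endothelial marker sums were 80.6 to 94.6 and 51.4 to 70.3 CPM at 96 h in WT. At 120 h in PkmΔDRE all 3 sums overlapped between vehicle and TCDD. Their part in the differences of *Krt19* and *Gpc3* was not tested.

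The response to TCDD was not shown to differ between the labels for any member. In 59 tests of the interaction none passed in edgeR or DESeq2, 4 had an unadjusted p under 0.05 and 3 of those were at 4 h, the hour with an outlying library, without which 1 was left. The fourth was *Afp* at 12 h, which had 3.57, 2.92, 2.52 and 3.20 CPM in PkmΔDRE vehicle and 12.7, 4.14, 7.69 and 8.72 CPM in TCDD, all higher, against overlapping WT groups (interaction 1.51, SE 0.46, adjusted p = 0.621). The share of all genes with an interaction was 0.00715% at 48 h, 0.00695% at 72 h and 0% at each of the other hours. An unadjusted p under 0.05 was found for 1186 of 13214 genes at 4 h and 977 of 13469 at 12 h. A single fit of all libraries gave 3 calls, those of *Afp*, *Cd24a* and *Spp1* at 4 h, with the outlying library in it.

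Between the labels in vehicle, 1 of 53 tests of members passed. *Sox9* at 12 h had 62.4, 53.9, 87.5 and 20.8 CPM in WT and 9.07, 21.1, 13.5 and 13.1 CPM in PkmΔDRE, overlapping at 1 library. The log2 difference, PkmΔDRE minus WT, was -1.94 (SE 0.40, adjusted p = 0.0325), and it lost its call without WT replicate 2 or 3 or PkmΔDRE replicate 1, 3 or 4. At that hour 3.68% of all genes were called between the labels, 0.0576% at 8 h, and 0% at every other hour. *Cd24a* at 12 h had 11.5, 18.8, 6.56 and 7.27 CPM in WT and 2.21, 5.80, 2.05 and 2.54 CPM in PkmΔDRE, without overlap, and did not pass (-1.76, SE 0.45, adjusted p = 0.0577). At 4 h the log2 differences between the labels went from 4.22 to 0.35 for *Afp*, from 5.48 to 1.25 for *Cd24a* and from 4.20 to -0.39 for *Spp1* once the outlying library was left out, and none passed either way. Label and isolation cannot be told apart in these libraries.

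Over the means of the 36 groups, as log2(CPM + 0.5), the members that rose followed one another, which describes groups that share hours and libraries. Pearson's r was 0.955 for *Afp* with *Cd24a*, 0.951 for *Cd24a* with *Spp1*, 0.942 for *Spp1* with *Krt19* and 0.905 for *Afp* with *Spp1*, while *Sox9* had 0.415 to 0.562 with these 4. Without the outlying libraries these r were 0.956, 0.953, 0.945, 0.910 and 0.435 to 0.576. The genes most like *Afp* were *Tead2* (0.983), *Ttyh3* (0.978) and *Ppp1r9b* (0.973). Most like *Cd24a* were *Afap1* (0.987), *Tspan3* (0.981) and *Col1a1* (0.976), most like *Spp1* were *Wipi1* (0.984), *Fgf13* (0.977) and *Qpct* (0.976), and most like *Krt19* were *Tmem130* (0.987), *Mboat1* (0.986) and *Mprip* (0.983). *Sox9* was closest to *Socs2* (0.916), *Fst* (0.912) and *Gpc4* (0.883), and *Epcam*, which fell, to *Cpq* (0.919) and *Pipox* (0.906). Each r is over 36 groups, and without the outlying libraries those of the genes named lay between 0.883 and 0.987.

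Within groups, after each group's mean was taken away, libraries high in *Cd24a* tended to be high in *Spp1*. Over all libraries r was 0.763 and Spearman's rho 0.556 (permutation adjusted p = 0.00015 for each over 15 pairs), and without the 2 libraries farthest on *Cd24a*, which are the outlying libraries of 4 and 96 h, r was 0.647. *Sox9* and *Krt19* had r = 0.456 and rho = 0.304 (permutation adjusted p = 0.00127 and 0.00852), and 0.410 without the 2 farthest libraries, the 4 h outlying library and WT TCDD replicate 2 at 2 h. *Afp* and *Cd24a* had r = 0.609 and rho = 0.349 (permutation adjusted p = 0.00547 and 0.00412), and 0.361 without the 4 h and 96 h outlying libraries. When those libraries were removed before centring, r was 0.579 for *Cd24a* with *Spp1* and 0.186 for *Afp* with *Cd24a*. The permutation adjusted p of *Afp* with *Cd24a* was then 0.0925 for r and 0.0597 for rho. *Sox9* with *Krt19* then had r = 0.357 and rho = 0.197 (permutation adjusted p = 0.0175 and 0.102).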

How the data were processed

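RNA-Seq libraries of primary mouse hepatocytes (144, in 36 groups of 4) were grouped by the labels, and replicates were numbered in accession order, which names a library and pairs none. The authors trimmed reads with Trimmomatic 0.39, aligned the 150-base pairs to GRCm39 (Ensembl release 104) with STAR 2.7 and deposited raw counts per gene, with no normalization; versions follow the submitters' processing notes. The unstranded count column was used, and the 4 lines that name no gene (16.8% to 48.0% of pairs, median 24.2%) stayed out of library sizes and tests. Symbols came from GENCODE M21 (GRCm38) for 52083 of 55359 genes.

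Counts were scaled with TMM and tested in edgeR 4.0.16 under R 4.3.3 (filterByExpr, count minimum 10 and total minimum 15, robust quasi-likelihood fit, Benjamini-Hochberg adjustment over all genes tested). Calls were made at an adjusted p under 0.05 where the fold change also reached 1.5. The 44 comparisons were 18 of TCDD with vehicle, 9 interactions, 9 label differences in vehicle and 8 over culture time. Printed CPM use TMM sizes over all libraries. Intervals and floors of 3 counts cover counting error only. Covariation used 100000 permutations within groups of log2(CPM + 0.5). Genes named were the members, up to 3 rising and 3 falling called genes of each other list in WT vehicle from 2 to 120 h, the 3 genes most like each member with a mean of at least 1 CPM, *Pkm* and the AHR targets. A gene that this rule names is not reported here. Members and lists were chosen with earlier results of these data known.

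Alternatives were RLE scaling, DESeq2 1.42.0, no count filter, no fold threshold, a covariate for pairs that hit no gene, 1 fit of all libraries, leaving out each library, a pseudocount of 0.1 and library total scaling. Leaving out the 4 h and 96 h outlying libraries (PkmΔDRE vehicle replicate 4 at each hour), or the 4 WT libraries whose *Cyp1a1* went against the treatment label, was added after the data were seen. On simulated counts with 200 genes changed by 2 on the log2 scale, edgeR recovered 83.2% of those tested for WT 120 h against 2 h, 87.9% for TCDD in PkmΔDRE at 120 h and 77.5% for the interaction at 120 h. It made 15, 15 and 6 false calls. Changed genes were drawn above a floor on the mean count, so these shares do not cover members as low as *H19*, *Igf2* and *Dlk1*. The labels and the methods give different plate formats, and the figure legends state more replicates than the 4 per group analysed here.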

Additional observations from a re-analysis of the deposited data

Results flagged for a closer look

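In groups of 4 libraries, a library was singled out where its gap to the nearest other, divided by the range of the group, was above Dixon's 95% critical value for 4 values, which chance gives in about 1 of 20 groups. Of 194 groups of members tested, 23 met this, and 6 of the 23 were in the outlying libraries of 4 and 96 h. Replicate 4 of PkmΔDRE vehicle at 4 h stood apart with 142.3 CPM of *Afp*, 4.128 of *Gpc3*, 315.9 of *Cd24a*, 681.6 of *Spp1* and 124.7 of *Krt19*, and replicate 4 of PkmΔDRE vehicle at 96 h with 5.344 CPM of *Spp1*. Those values are set beside the rest of their groups in the report.

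Replicate 1 of WT TCDD at 96 h stood apart with 131.7 CPM of *Afp*, where the other 3 had 209.9 to 214.9, with 633.2 CPM of *Spp1*, where they had 242.2 to 268.4, and with 95.15 CPM of *Sox9*. Of its counts by strand 63.3% fell on 1 strand, beside 50.4 to 51.5% in the other 3. Its unmapped pairs were 11.4%, beside 3.91 to 6.61%. The *Krt19* and *Gpc3* calls at 96 h in WT were kept without it. Replicate 3 of WT TCDD at 120 h had 74.09 CPM of *Afp* beside 175 to 182.7, 211.1 CPM of *Spp1* beside 414.1 to 420.8, and 26.91 CPM of *Krt19*. Replicate 3 of WT TCDD at 72 h had 24.27 CPM of *Cd24a* beside 170 to 199.3. Replicate 2 of PkmΔDRE vehicle at 72 h had 18.16 CPM of *Gpc3* beside 0.7741 to 2.969. Replicate 3 of PkmΔDRE vehicle at 24 h had 73.17 CPM of *Spp1* beside 1.36 to 5.394, and replicate 1 of PkmΔDRE TCDD at 96 h had 185 CPM of *Spp1* beside 303.1 to 308.8.

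The others were spread over several groups. *Cd24a* was 8.812 CPM in replicate 4 of WT TCDD at 8 h and 5.799 CPM in replicate 2 of PkmΔDRE vehicle at 12 h, and *Epcam* was 0.2831 CPM in replicate 4 of WT vehicle at 4 h. *Sox9* was 27.96 CPM in replicate 2 of PkmΔDRE vehicle at 8 h, 131.6 CPM in replicate 1 of PkmΔDRE vehicle at 120 h, 111.04 CPM in replicate 4 of PkmΔDRE TCDD at 2 h and 38.28 CPM in replicate 2 of PkmΔDRE TCDD at 4 h. The cause of these differences was not tested. In 59 interaction tests of members hour by hour, none passed.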

How the results depend on the processing

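No paired analysis was possible because the labels carry no replicate number, and those used here follow accession order. Of the members' TCDD calls in WT (2), there were 5 with DESeq2, 6 with no count filter, 4 with no fold threshold and 0 in 1 fit of all libraries, and in PkmΔDRE (2) there were 4 in 1 fit of all libraries, none of them among the 2 and all at 4 h with its outlying library, and 5 without the outlying libraries of 4 and 96 h (chosen after the data were seen). Interaction calls (0) became 3 in 1 fit of all libraries. Label differences (1) became 2 with DESeq2, 3 with a covariate for pairs that hit no gene and 5 in 1 fit of all libraries. Culture calls from 2 to 24 h in WT (6) became 3 with no count filter, and those from 24 to 120 h in PkmΔDRE (5) became 8 with DESeq2 and 8 in 1 fit of all libraries. Those from 2 to 120 h in WT (5) became 2 with the covariate, whose values did not overlap between these hours. Pairs of members that covaried (7 of 15) became 11 with library total scaling. Without the outlying libraries, *Cd24a* with *Spp1* and *Sox9* with *Krt19* kept a permutation adjusted p under 0.05. *Afp* with *Cd24a* (0.0925), *Cd24a* with *Krt19* (0.22) and *Sox9* (0.393), and *Spp1* with *Krt19* (0.0728) and *Sox9* (0.289) did not. *Epcam* with *Cd24a* (r = 0.286) and *Spp1* (0.236), and *Afp* with *Sox9* (-0.245), came under 0.05 there. The cause of these differences was not tested, except that settings with more genes or no fold threshold can call more by their construction.

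Leaving out 1 library at a time gave 1 to 4 TCDD calls in WT, 1 to 5 in PkmΔDRE, 0 to 0 interactions and 0 to 2 label differences. Culture calls were 5 to 6 (WT) and 2 to 5 (PkmΔDRE) from 2 to 24 h, 6 to 7 and 5 to 6 from 24 to 120 h, 5 to 6 and 5 to 6 from 2 to 120 h, and 4 to 6 and 5 to 6 under TCDD. Of the members' single values, *Spp1* at 24 h in PkmΔDRE (TCDD against vehicle) turned from a log2 fold change of -1.06 to 2.26 with the covariate and, leaving out 1 library, lay between -1.53 and 1.49, above 0 without vehicle replicate 3, and *Spp1* at 48 h from -0.74 to 0.02 with the covariate. *Krt19* at 24 h in PkmΔDRE was -0.22 and lay between -0.90 and 1.03 leaving out 1 library, at 1.03 without vehicle replicate 4 and at 0.14 and 0.15 without TCDD replicate 1 and 2. None of these passed the test in any setting. Counts at or near 0 limit *H19*, *Igf2*, *Dlk1* and, before 48 h, *Gpc3*.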

Other observations

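The 4 h and 96 h outlying libraries, replicate 4 of PkmΔDRE vehicle at each hour, also stood apart over whole marker lists. Summed CPM of 12 mature hepatocyte genes were 11530 in the 4 h one, where the other 3 libraries labelled 4 h had 130400 to 148400, and 115200 in the 96 h one, where the other 3 labelled 96 h had 13930 to 16220. Cholangiocyte marker sums were 468 CPM in the 4 h one beside 21.6 to 28.0, and 13.4 in the 96 h one beside 348 to 470. Oncofetal gene sums, in which *Hmga1* is the most abundant, were 168 CPM in the 4 h one beside 638 to 930 and 726 in the 96 h one beside 118.3 to 165. *Pkm* was 502 CPM in the 4 h one beside 54.5 to 224, and 91.9 in the 96 h one beside 346 to 807.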
